A study of Mus musculus with 68 samples.

Results

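Semaphorins are guidance proteins that turn or repel growing axons and migrating cells, and plexins are the receptors that read them. Class 3 semaphorins are secreted and mostly act through a pair of receptors, in which a neuropilin (Nrp1 or Nrp2) binds the ligand and an A-type plexin carries the signal into the cell, whereas the membrane-bound semaphorins of classes 4 to 7 bind plexins directly. In the developing cortex they are known for steering newborn neurons on their way out of the ventricular zone and their axons afterwards. The genes described here are all those whose symbol in the platform annotation is Sema followed by a digit, begins with Plxn, or is Nrp1 or Nrp2, which gave 32 genes of 18194 on the array. They comprise 20 semaphorins, 9 plexins, 2 neuropilins and Plxna4os1, a transcript antisense to Plxna4, and they were measured by 79 probe sets.

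The arrays came from 68 single cells of the dorso-lateral cerebral wall of wild-type CD1 mice, each cell hybridized to 1 array after cDNA amplification. The labels name 30 cells of E11, 28 cells of E16, 3 apical progenitors (APs, which divide at the ventricular surface) of E12, 3 APs from E11 cells grown for 3 days as neurospheres with FGF2 and EGF, and 4 NICD/p18 APs of E14. The last were electroporated at E11 with the intracellular domain of Notch1 (NICD) under the pCAG promoter and the cell-cycle inhibitor p18 (Cdkn2c) under the pEF promoter, the other 64 cells carrying no transgene. E14 and E16 cells came from fragments of the ventricular and subventricular zones. Cells had been picked for the arrays by qPCR of marker genes. Which embryo or dish a cell came from is not labelled, so each group of cells counts as 1 sample, no significance test was made, and SDs are between cells.

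Signals are intensities after quantile normalization of all arrays. Poly(A) RNAs had been added to each cell at known copy numbers, and 842.4, the median signal of the 20-copy RNA (phe), served as the floor: a cell at or above it is called over 20 copies, and lower signals were raised to it before means were taken on the log2 scale, where the floor is 9.72. By construction 34 of 68 cells reached the floor for phe itself, the 100-copy RNA reached it in 65 of 68 and the 5-copy RNA in 3 of 68, so a transcript near 20 copies is missed in many cells and a cell under the floor is not shown to lack it. In the NICD/p18 arrays phe had a median of 3308, against 758.5 to 928.6 in the other 4 label groups. For NICD/p18 cells, over 20 copies therefore means only a signal at or above 842.4. The mean of the deposited signals, trimmed at both ends, was 500.0 in every E12, neurosphere and NICD/p18 array and 47.5 to 297.5 in the E11 and E16 arrays, so that scaling by the authors and group cannot be told apart between these sets. Of 2278 pairs of arrays 0 were identical.

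E11 and E16 cells were sorted by clustering on 13 AP, 11 IP and 14 neuron markers, among which there is no semaphorin, plexin or neuropilin. Intermediate progenitors (IPs) are the daughters of APs that leave the ventricular surface and mostly divide into neurons. At E11 the clusters were an AP-like one of 21 cells (Sfrp1 and Id4 leading, with the low-quality cell 31i left out), an IP-like one of 5 cells (Neurog2, Dll1, Hes6, Gadd45g and Eomes leading) and a neuron-like one of 3 cells (Rtn1, Crmp1 and Dpysl3 leading), in which cell 30F carried 3 of 4 Cajal-Retzius markers. In 2 of the 5 IP-like cells, 37N and 45G, Eomes (Tbr2, the classic IP marker) was not over 20 copies. At E16 an AP-like cluster of 24 cells also held 7 cells with 7 or more IP markers. Cluster 2 held 3 cells with 5 to 8 IP and 7 to 8 neuron markers, with Eomes over 20 copies in 3 of 3. By its leading genes, Dcx and Neurod6 among them, it was neuron-like, and it is kept apart from cluster 3 by its number. Cluster 3 was the single neuron-like cell 80K. Because no E16 cluster was led by IP markers, a second typing, read from the cell names in the published cluster trees, is given beside the clusters and called the tree typing. At E16 it holds 16 APs, 9 IPs and 1 neuron, and 2 cells whose names could not be read apart were left out. At E11 it differs from the clusters in placing 37N and 45G with the APs. Markers of vessels, mural cells, microglia, blood, mesenchyme and interneurons were over 20 copies in no IP-like, neuron-like, cluster 2 or cluster 3 cell. Some were over it among the APs: Pdgfrb and Alas2 in E11 AP-like cells, Cspg4 in neurosphere APs and the vessel marker Cldn5 in NICD/p18 APs. In E16 AP-like cells they were Pdgfrb, Col1a2, Csf1r and Tyrobp, with up to 2 of the 4 microglia markers in a cell. Of the labelled APs, 1 of 3 at E12 had Eomes over 20 copies, and the 4 NICD/p18 APs carried 8 to 10 of the 13 AP markers but also 4, 9, 11 and 2 of the 14 neuron markers in cells M5A, M5K, M6C and M6H. Pdgfrb, 1 of 4 mural markers, was over 20 copies in 4 of 4 NICD/p18 and 0 of 3 E12 APs, while the other mural markers were over it in none of these cells.

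At least 1 plexin was over 20 copies in 64 of 68 cells and at least 1 semaphorin in 45, and a single cell had no member over the floor. Such counts hold for the probe sets used and do not rank genes against each other, because probe sets of 1 gene differed as well, those of Plxnc1 from 0 to 15 cells over the floor and those of Nrp1 from 0 to 10. Of the 32 genes 25 were over 20 copies in at least 1 cell, as were 10789 of all 18194 genes on the array. The 25 were 16 of 20 semaphorins, 7 of 9 plexins and 2 of 2 neuropilins. The 7 that never reached the floor were Plxna4os1, Plxnb3, Plxnd1, Sema3b, Sema3g, Sema4c and Sema6b, whose highest signals lay between 35.7 (Plxna4os1) and 694.3 (Plxnb3). There were 10 genes over 20 copies in 10 or more cells, Plxnb2 in 58 of 68, Plxna1 in 27, Sema5b in 26, Plxnb1 in 23, Plxna2 in 18, Plxna3 in 17, Plxnc1 in 15, Sema6d in 14, and Nrp1 and Sema4g in 10 each.

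**Figure D1:**
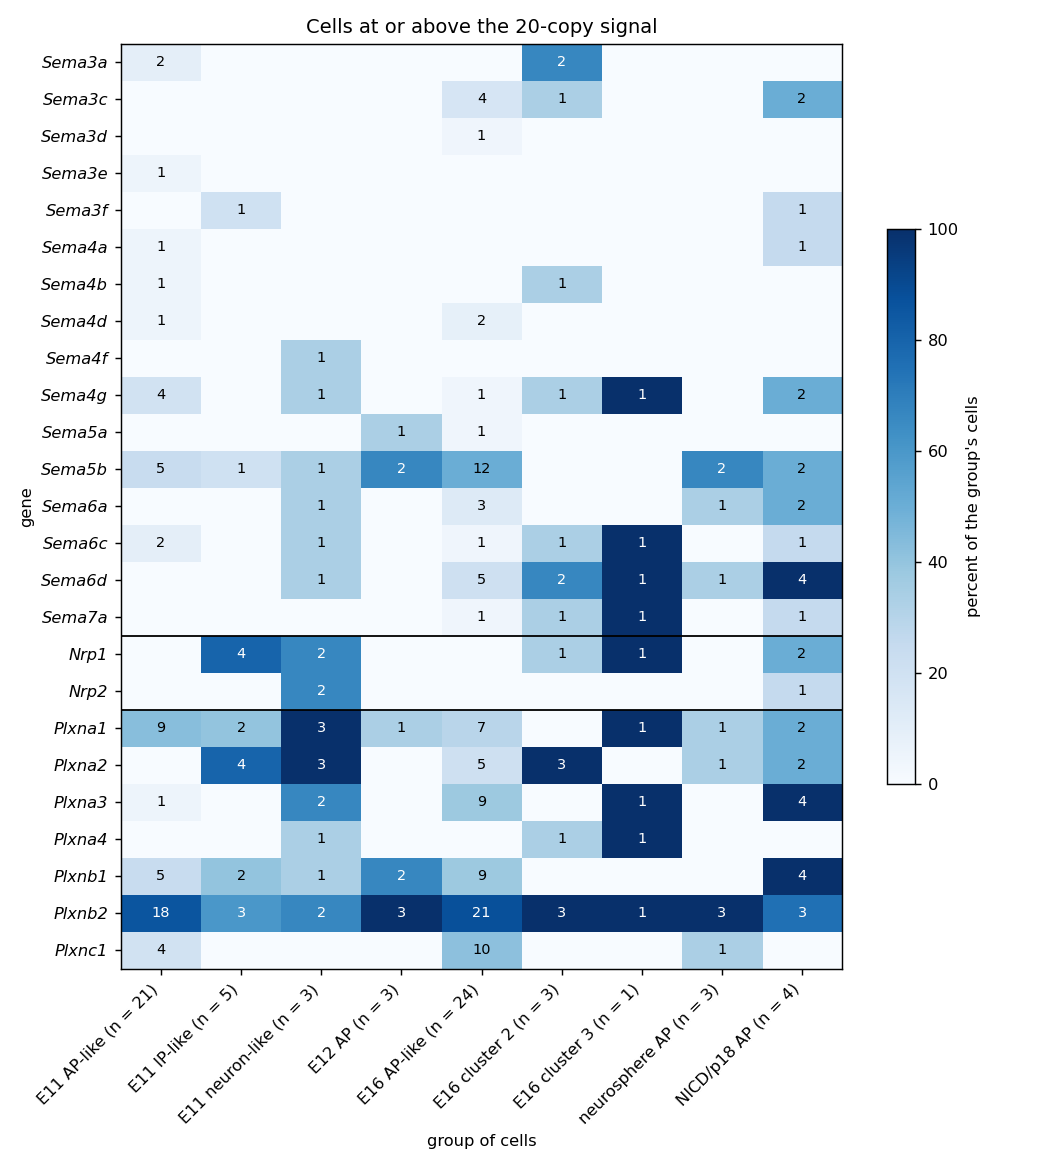
The 25 members that reached the 20-copy signal in any cell (rows; semaphorins, neuropilins and plexins separated by lines) in 9 groups of cells (columns, with their number of cells). Colour gives the percentage of a group's cells at or above the signal and the printed number their count; Plxnb2 was found in every group, whereas Nrp1, Nrp2 and Plxna2 were found in none of the 21 E11 AP-like cells.

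The receptors that set cells apart were Plxna2 and the neuropilins. Plxna2, a signalling partner of neuropilins and also a receptor for class 6 semaphorins, and Nrp1, the binding receptor for Sema3a, were under the floor in every E11 AP-like cell and over it in most E11 IP-like and neuron-like cells. Since they appeared in the same cells, their promoter windows, with that of Nrp2, are shown here from RefSeq (GRCm38.p6, 250 bases before to 50 after the start site). A window was found for 26 of the 32 members. Capitals mark the E-box CANNTG, the letters read by bHLH factors such as Neurog2, which led the IP-like cluster; the pattern is its own reverse complement, so both strands are covered.
Plxna2 (chr1:194619579-194619878, plus strand): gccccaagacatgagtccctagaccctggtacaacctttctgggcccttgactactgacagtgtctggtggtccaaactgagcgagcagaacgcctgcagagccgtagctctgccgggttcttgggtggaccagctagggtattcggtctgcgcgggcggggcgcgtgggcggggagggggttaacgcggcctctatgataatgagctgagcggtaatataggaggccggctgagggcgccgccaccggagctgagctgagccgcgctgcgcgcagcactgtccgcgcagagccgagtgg
Nrp1 (chr8:128358823-128359122, plus strand): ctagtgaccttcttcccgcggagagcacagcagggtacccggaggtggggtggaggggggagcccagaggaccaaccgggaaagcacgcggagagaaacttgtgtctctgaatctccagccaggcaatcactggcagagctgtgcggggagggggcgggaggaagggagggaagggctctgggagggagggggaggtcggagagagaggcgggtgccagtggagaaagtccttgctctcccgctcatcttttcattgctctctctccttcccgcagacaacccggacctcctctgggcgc
Nrp2 (chr1:62703067-62703366, plus strand): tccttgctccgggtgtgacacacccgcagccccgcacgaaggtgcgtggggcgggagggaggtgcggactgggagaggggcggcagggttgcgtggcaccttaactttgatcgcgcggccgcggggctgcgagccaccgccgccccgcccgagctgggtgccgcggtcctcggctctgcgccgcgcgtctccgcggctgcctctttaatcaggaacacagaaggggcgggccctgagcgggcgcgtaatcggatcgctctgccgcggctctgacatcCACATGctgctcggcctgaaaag
The E-box occurred 0 times in the windows of Plxna2 and Nrp1 and 1 time in that of Nrp2, downstream of the start site. A window without a match says only that these letters are not in it. The pattern is short and common, held by 72.3% of 32851 windows of all genes and by 21 of the 37 windows of members.

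Plxna2 signals in the 21 E11 AP-like cells ran from 0.573 through a median of 8.30 to 225.3, so that 0 of 21 were over 20 copies, which allows a share of up to 14.3%. In the 5 E11 IP-like cells they were 1541 in 37N, 971 in 41G, 4168 in 42M, 10.2 in 45G and 4765 in 45O. In the 3 neuron-like cells they were 1303 in 30F, 5534 in 32J and 5753 in 43D. Thus 7 of these 8 cells lay above every AP-like cell, and the exception, 45G, was one of the pair without Eomes. The floored mean was 10.89 (SD 1.17, n = 5) in IP-like cells, 1.18 above the AP-like mean on the log2 scale, and 11.76 (SD 1.22, n = 3) in neuron-like cells, 2.04 above it; with the AP-like cells all at the floor, these are differences of at least 2.26-fold and at least 4.11-fold. In the tree typing Plxna2 was over the floor in 3 of 3 IPs and 1 of 23 APs. The other Plxna2 probe sets were over the floor less often, 1 of them in 8 of 68 cells, which included 2 E11 AP-like cells, 1 in 3 cells and 1 in none, so the AP-like cells are not shown to be free of every Plxna2 transcript form.

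Nrp1 followed the same division at E11. Its signals in the 21 AP-like cells reached no more than 15.4, with a median of 6.11. The IP-like cells had 1729 in 37N, 3021 in 41G, 5803 in 42M, 29.9 in 45G and 924.9 in 45O. Hence the same 4 IP-like cells were over 20 copies for both genes. The 45G signal and the highest AP-like signal both lay far below the floor and cannot be ordered. Neuron markers moved with this split: 37N, 41G, 42M and 45O carried 4, 9, 3 and 9 of the 14 and 45G carried 2, against a median of 1 and a highest count of 4 in AP-like cells, and the part of these markers in the result was not tested. The floored IP-like mean was 10.88 (SD 1.17, n = 5), 1.16 above that of the AP-like cells, which is at least 2.23-fold. In neuron-like cells Nrp1 was 9.24 in 30F, 1180 in 32J and 1686 in 43D, a floored difference from AP-like cells of 0.50. Leaving out cell 42M lowered the Nrp1 difference between IP-like and AP-like cells to 0.75 and that of Plxna2 to 0.89, leaving out 41G lowered Nrp1 to 0.99, and leaving out 45O lowered Plxna2 to 0.85, all below the 2-fold line of 1. The 4 Nrp1 probe sets did not report alike. The one used here was over the floor in 4 IP-like and 2 neuron-like cells, the second in 0 and 2, the third in 2 and 0, and the fourth in no cell, and with the second, which has the highest single value, the IP-like difference was 0.00.

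Nrp2, the neuropilin that prefers Sema3f and Sema3c, was restricted further. It was 3620 in 30F, 9.87 in 32J and 6754 in 43D among the E11 neuron-like cells and at most 10.9 in the 5 IP-like cells and 13.4 in the 21 AP-like cells. The neuron-like mean was 11.42 (SD 1.54, n = 3), 1.70 above the AP-like mean, or at least 3.25-fold. With 43D left out the difference was 1.05. Of the 4 Cajal-Retzius markers 30F had 3, 43D had 1 and 32J had 0 over the floor, so Nrp2 was over it in the 2 neuron-like cells that had any, and the part of these markers was not tested. At E16 none of 28 cells was over 20 copies for Nrp2, which allows a share of up to 10.7%.

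Plxna2 and Nrp1 were the 2 members whose IP-like mean at E11 was higher by 1 or more on the log2 scale, in a comparison where 0.843% of 10789 genes were, and Plxna2 and Nrp2 were the 2 for neuron-like cells, where 3.32% were. No member was lower by that much, where 0.64% of genes were lower in IP-like and 3.47% in neuron-like cells. Across all 68 cells Nrp1 was over 20 copies in 10 and Plxna2 in 18, and 9 cells had both. The single cell with Nrp1 alone was the E16 neuron-like cell 80K, where Plxna2 was 784.8, just under the floor. A neuropilin of either kind was over 20 copies in 11 cells, and 11 of these 11 also had an A-type plexin over 20 copies, as did 47 of all 68 cells.

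**Figure D2:**
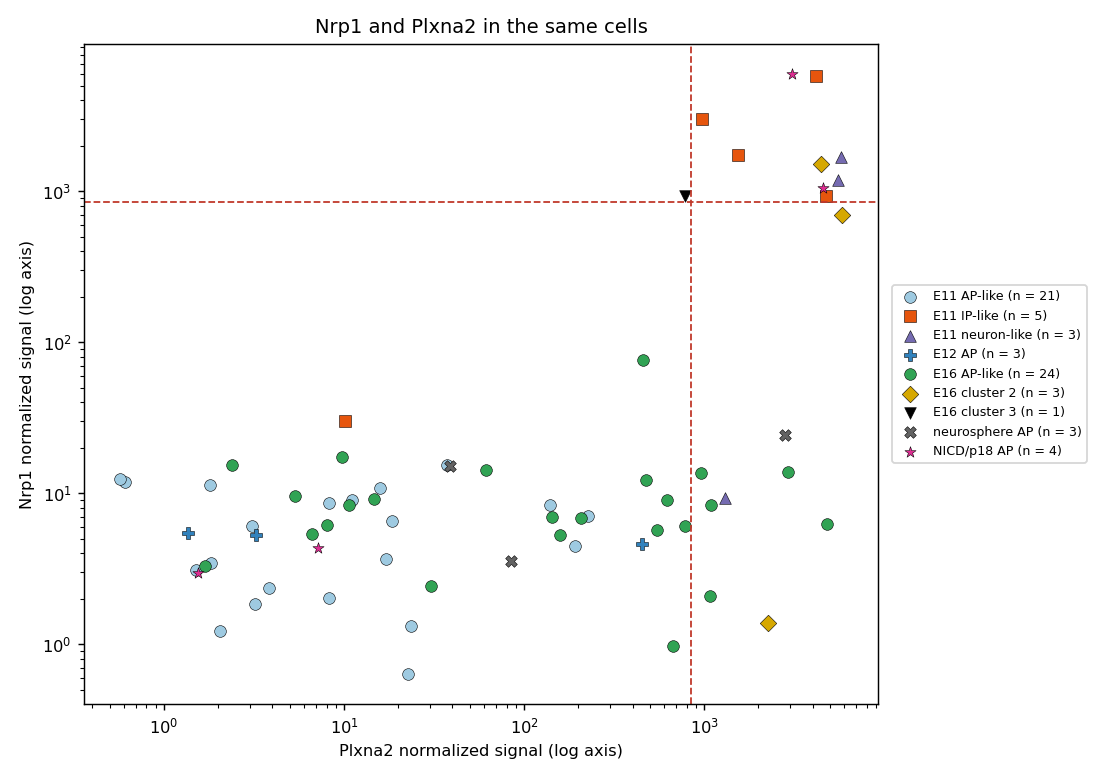
Normalized signal of Nrp1 (vertical, log axis) against Plxna2 (horizontal, log axis), 1 point per cell, with symbol and colour for the group and dashed lines at the 20-copy signal of 842.4. The upper right field holds the 9 cells with both genes (4 E11 IP-like, 2 E11 neuron-like, 1 E16 cluster 2 and 2 NICD/p18 cells), and 1 cell, 80K, has Nrp1 alone.

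At E16 Plxna2 was over the floor mostly in cells with IP markers, whereas Nrp1 was over it in only 1 of the 9 IPs of the tree typing. Plxna2 was 4447 in 72J, 2253 in 73A and 5822 in 76J, the 3 cells of cluster 2, and over 20 copies in 5 of the 24 AP-like cells. Of those 5, cells 71E, 75O, 82H and 82P are IPs in the tree typing and the fifth, 81M, was at 954.5. In that typing Plxna2 was over the floor in 7 of 9 IPs (77.8%, exact 95% interval 40.0 to 97.2%) and 1 of 16 APs (6.25%, 0.158 to 30.2%); these intervals cover counting error only. The IP mean was 11.01 (SD 1.13, n = 9) against 9.73 (SD 0.05, n = 16) in APs, a difference of 1.28 where 0.704% of genes were higher and 0.751% lower by 1 or more. Cluster 2 minus the AP-like cluster gave 1.99, in a comparison where 2.78% of genes were higher and 2.12% lower. Read against Eomes alone, Plxna2 was over 20 copies in 6 of 9 E16 cells with Eomes over the floor and 2 of 19 without, and at E11 in 5 of 5 and 2 of 25. Plxna2 was therefore found in a larger share of cells with Eomes than without at both stages. Neuron markers partly followed this division at E16. Cells 72J, 73A, 76J, 71E, 75O, 82H and 82P carried 7, 7, 8, 7, 4, 3 and 5 of the 14, and 81M carried 1. The 16 APs of the tree typing had a median of 2 and a highest count of 4. The IPs under the floor for Plxna2, 75A and 81O, carried 3 and 7. The part of these markers in the result was not tested.

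Nrp1 at E16 was 1517 in 72J, 1.39 in 73A, 700.7 in 76J and 927.5 in 80K, and no higher than 76.0 in the 24 AP-like cells. In the tree typing 1 E16 IP of 9 reached the floor and 3 E11 IPs of 3 did, and the E16 mean was 1.49 lower on the log2 scale (SD 0.65 between cells). Plxnb2, a receptor for class 4 semaphorins, went the other way in IPs, over the floor in 1 of 3 at E11, with signals of 3.82, 1154 and 630.7 in 41G, 42M and 45O, and in 9 of 9 at E16, with signals from 1596 through a median of 2438 to 9068. Its difference was 1.74 (SD 0.78). In that comparison 1.71% of genes were higher at E16 and 2.59% lower by 1 or more. Without 42M the Nrp1 difference was -0.89, and with the probe set that has the highest single value it was 0. In the 5 IP-like cells of the E11 cluster Plxnb2 was over the floor in 3. Of these, 37N at 1774 and 45G at 2385 lay inside the E16 IP range, so the stages are apart for Plxnb2 only in the tree typing.

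Among the B-type plexins, Plxnb2 was found in most cells of every AP or AP-like group. It was over 20 copies in 18 of 21 E11 AP-like cells, with signals of 283.8, 2000 and 4193 as lowest, median and highest, and in 21 of 24 E16 AP-like cells, with 5.10, 2419 and 6930. It was 1122, 3014 and 3671 in the 3 E12 APs and 5165, 2746 and 1971 in the 3 neurosphere APs. The E16 AP-like mean was 0.54 above the E11 mean, within the SD of 0.85 between cells. Plxnb1, the receptor of Sema4d, was over the floor in 5 of 21 and 9 of 24 of these cells.

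With the probe set used here, Plxnc1, the receptor of Sema7a, was seen in E11 and E16 cells where Eomes was under the floor and in none where it was over. It was over 20 copies in 10 of 19 such E16 cells and 0 of 9 with Eomes, and at E11 in 4 of 25 and 0 of 5. A count of 0 of 9 allows a share of up to 33.3%. Among the other Plxnc1 probe sets, 1 was over the floor in 5 cells, 3 of them E16 APs and none an E16 IP of the tree typing, and 1 was over it in a single cell, an E16 IP of that typing, at 1816. The 16 E16 APs of the tree typing had signals of 4.45, 1310 and 4146 as lowest, median and highest, 9 of them over the floor, whereas the 9 IPs had 7.55, 34.8 and 713.5. The 2 ranges overlapped, the IP mean was 0.85 lower, and this did not reach the 2-fold line. Between stages, E16 APs of this typing were 0.73 above those of E11, of which 4 of 23 were over 20 copies.

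**Figure D3:**
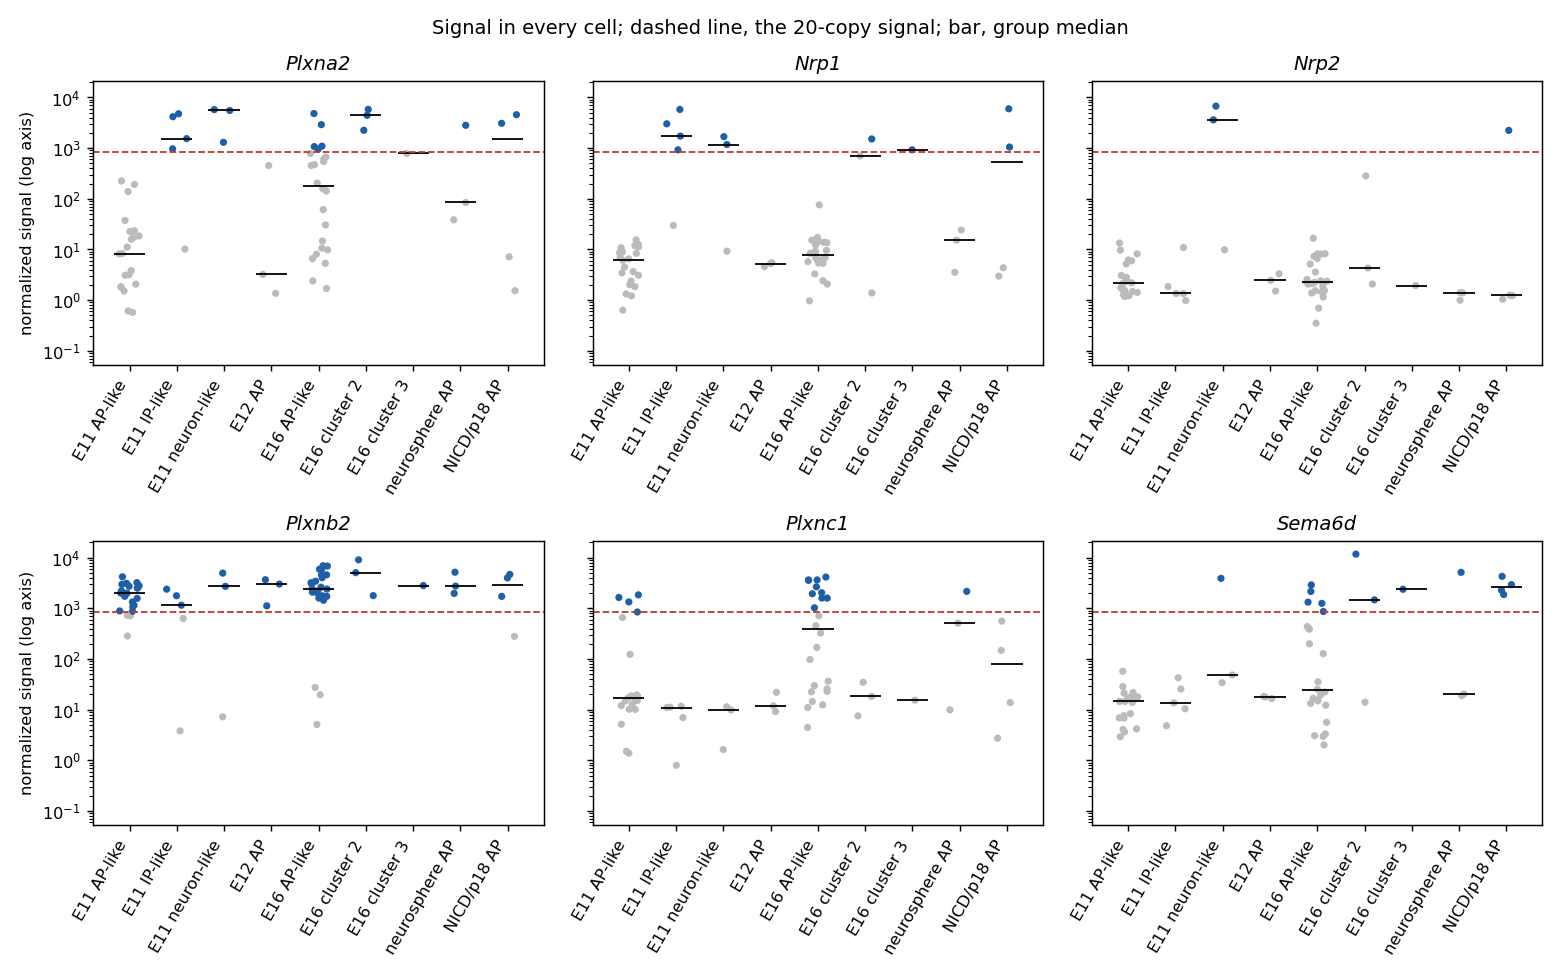
Normalized signal (log axis) of Plxna2, Nrp1, Nrp2, Plxnb2, Plxnc1 and Sema6d in every cell of 9 groups. Each point is 1 cell, blue at or above the 20-copy signal (dashed line, 842.4) and grey below it, and bars are group medians; Plxna2 and Nrp1 have no E11 AP-like cell over the line, where their highest values are 225.3 and 15.4.

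The remaining A-type plexins had patterns of their own. Plxna1 was over 20 copies in 9 of 21 E11 AP-like cells, 2 of 5 IP-like and 3 of 3 neuron-like cells, and in 7 of 24, 0 of 3 and 1 of 1 of the E16 clusters in turn. Plxna3 was found in 3 of 30 E11 cells (exact interval 2.11 to 26.5%) and 10 of 28 E16 cells (35.7%, 18.6 to 55.9%). These intervals overlap, but they cover counting error only and are no test between the stages. At E11 Plxna3 reached 2994 in 30F and 1077 in 32J, both neuron-like, against 944.1 as the highest of the AP-like cells. Plxna4, which pairs with Nrp1 in Sema3a signalling, was over the floor in only 3 cells, at 1156 in 43D, 1195 in 72J and 2444 in 80K, each a cell with many neuron markers. The E16 cell 80K, with 12 of 14 neuron markers, had 9 members over the floor, more than any other E16 cell, among them Sema4g at 5474 and Plxna3 at 4715; it is a single cell and stands for no group.

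Class 3 ligands, the partners of neuropilins, reached the floor in a minority of cells. Of 7 genes 5 reached the floor in any cell, and 14 of 68 cells had at least 1. Sema3c was over 20 copies in 0 of 30 E11 cells and 5 of 28 E16 cells, the highest at 4495 in 76J. Sema3a, the classic repellent of cortical axons, was at 1818 in 72J and 1154 in 76J at E16 and over the floor in 2 of 21 E11 AP-like cells. Sema3d, Sema3e and Sema3f reached it in 1, 1 and 2 cells, at no more than 1101. A class 3 gene and a neuropilin were over 20 copies together in 4 of 68 cells.

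Of the membrane-bound ligands, Sema5b, a transmembrane semaphorin, was over 20 copies in 5 of 21 E11 AP-like cells and 12 of 24 E16 AP-like cells, with medians of 448.5 and 806.7. In the tree typing it was found in 9 of 16 E16 APs, at 207.5, 901.6 and 3433 as lowest, median and highest, and in 2 of 9 IPs, at 0.855, 257.7 and 1890, ranges that overlap. Its relative Sema5a, one of the genes the study followed over time by qPCR, stayed mostly under the floor. It was 781.3, 310.5 and 990.3 in the 3 E12 APs, while the 21 E11 AP-like cells had a median of 1.63 and a highest value of 250.9. Of the 3 E12 cells only 1 was over the floor, and the signals under it cannot be ordered. The 24 E16 AP-like cells had a median of 140.9 and a highest value of 1229, and the 4 NICD/p18 APs had at most 36.9. Because both sets of arrays were scaled differently by the authors and nearly all these signals are below 20 copies, no fold is given.

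Sema6d, a ligand for A-type plexins that can itself act as a receptor, was found mostly in later cells. It was over the floor in 1 of 30 E11 cells (0.0844 to 17.2%), at 3903 in 32J, and in 8 of 28 E16 cells (13.2 to 48.7%), with no E11 AP-like cell above 57.3. The 2 intervals overlap, but they too cover counting error only and are no test. In E16 cluster 2 Sema6d was 1469 in 72J, 14.1 in 73A and 11740 in 76J, a mean 1.35 above the AP-like cluster. Without 76J the difference was 0.22, and in the tree typing, E16 IPs minus APs, it was 0.35. Sema6a was over the floor in 7 cells, Sema6c in 8, Sema4g in 10, Sema7a in 4, Sema4d in 3, Sema4a, Sema4b and Sema5a in 2 each and Sema4f in 1. Sema6a was found in 1 E11 cell, the neuron-like 30F, and 3 E16 cells.

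From E11 to E16 no member mean moved by 1 or more, either over all cells of the 2 stages, where 0.825% of genes did, or over AP-like cells, where 1.21% did. The largest changes over all cells were those of Plxnb2 at 0.64 and Plxnc1 at 0.44, and both were smaller than the SD between cells. The median difference of the 16 semaphorins that reached the floor was 0.02 and of the 7 plexins 0.06 over all cells, and over AP-like cells they were 0.00 and 0.22, beside 0.00 for all genes in both. E12 APs against E11 AP-like cells likewise gave 0 members, where 1.47% of genes differed by 1 or more.

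**Figure D4:**
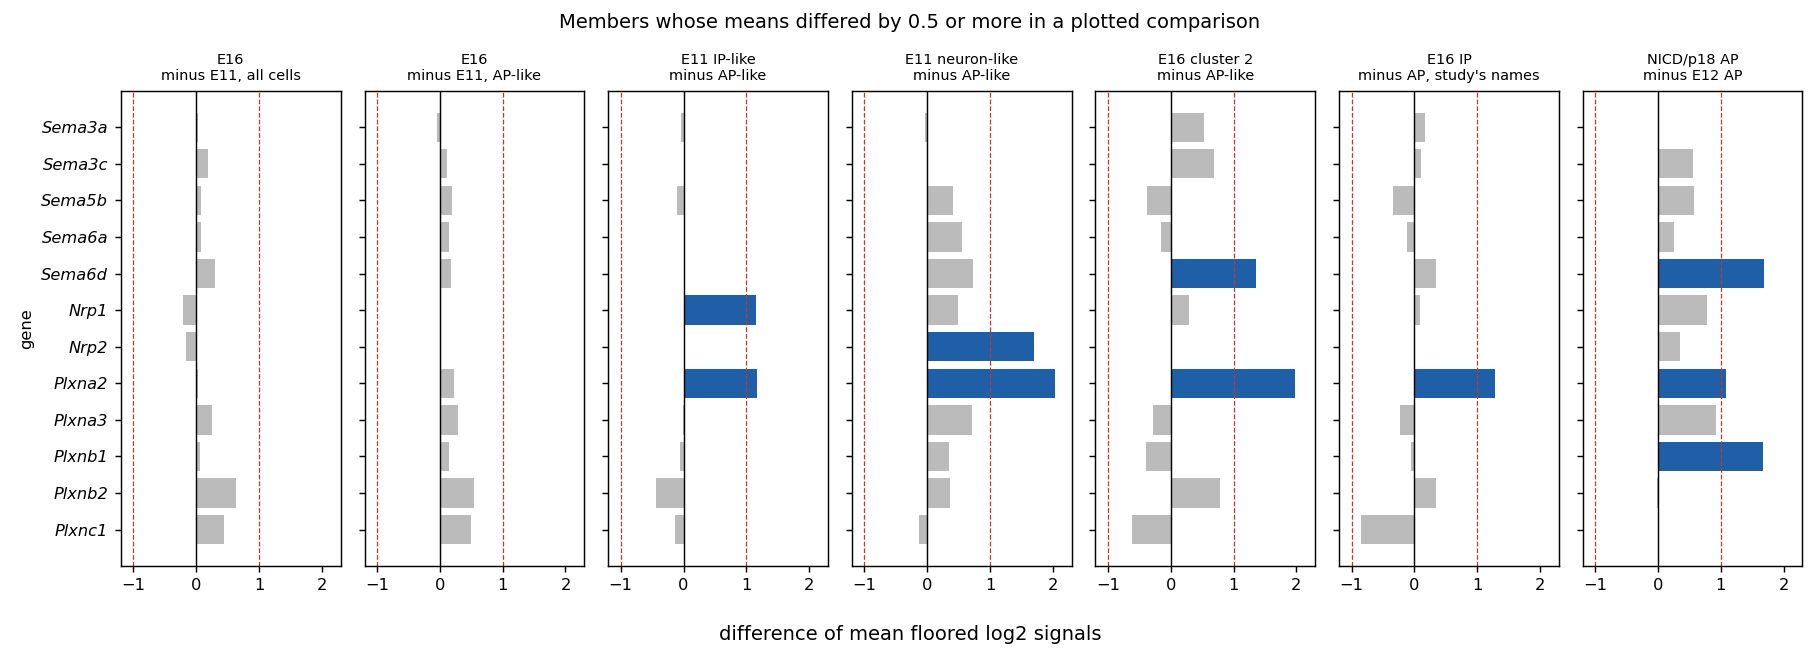
Differences of mean floored log2 signal (horizontal axis, first-named group minus second) for the 12 members that differed by 0.5 or more in a plotted comparison; the panel headed study's names uses the tree typing. Blue bars pass the 2-fold line of 1, dashed; both stage comparisons hold no blue bar, and Plxna2 passes the line in the 5 others.

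Culture and cell-cycle arrest were read against the E12 APs, which the authors scaled in the same way. Neurosphere APs gave 0 members past 1, where 4.25% of genes were in either direction. Sema6d was 5134 in W2G and about 20 in the other 2 cells, and Plxna2 was 2825 in W6D, 38.6 in W2G and 84.7 in W2O. The differences of 0.87 for Sema6d and 0.58 for Plxna2 each came from 1 cell over the floor.

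In NICD/p18 APs 3 members were higher than in E12 APs by 1 or more, where 3.24% of genes were, and none was lower, where 4.07% of genes were. Sema6d was 2935 in M5A, 4279 in M5K, 1870 in M6C and 2278 in M6H, against 17.8, 16.5 and 18.2 in the E12 APs, without overlap, a difference of 1.68. Plxnb1 was 2234, 3101, 5628 and 3822 in the same order, against 1120, 1404 and 127.5, also without overlap, a difference of 1.67. Plxna3 was over the floor in 4 of 4 cells, from 1024 to 2999, and in 0 of 3 E12 APs, a difference of 0.93. All 4 Plxna3 signals lay below 3308, the median 20-copy signal of the NICD/p18 arrays. So did those of Sema6d in M5A, M6C and M6H and of Plxnb1 in M5A and M5K. The signals given below for Plxna2 in M6C, Nrp1 in M5K and Nrp2 in M6C also lay under 3308. These signals are thus not shown to lie over 20 copies. Plxna2 was divided, at 4570 in M5K and 3091 in M6C but 7.16 in M5A and 1.54 in M6H, with a difference of 1.08 that was 0.63 without M5K and 0.81 without M6C, and 0.96 with arrays scaled to the same trimmed mean. Nrp1 had the same split, at 1052 and 5974 against 4.37 and 2.97, and Nrp2 was over the floor in M6C alone, at 2238. M5K and M6C are the 2 cells with 9 and 11 neuron markers, and the part of these markers and of Pdgfrb in the result was not tested. The groups differ in embryonic day (E14 and E12) as well as in the transgenes, which cannot be told apart here. Added RNAs also read higher in the NICD/p18 than in the E12 arrays. Their medians were 3308 and 928.6 at 20 copies, 4070 and 1212 at 100 copies and 14201 and 6806 at 1000 copies. These shifts cannot be told apart from the transgenes either, so no fold is given. With arrays scaled to the 1000-copy RNA (lys), the differences were 1.53 for Sema6d, 1.19 for Plxnb1 and 1.04 for Plxna2. Cdkn2c itself was over the floor in 0 of 4 NICD/p18 cells. Whether its probe set lies in the transgene is not given in the sources used here, so this checks nothing.

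Genes that act below or beside the receptors were read from a list of 36 effectors and co-receptors, of which 35 were on the array and 30 were over 20 copies in some cell. In E11 neuron-like cells 6 of the 30 were higher than in AP-like cells by 1 or more and 0 lower, where 3.32% of all genes were higher and 3.47% lower: Dpysl3 by 3.28, Crmp1 by 3.07, L1cam by 2.95, Cdk5r1 by 2.06, Fyn by 1.49 and Dpysl4. Dpysl3, Crmp1 and L1cam are also among the leading genes of this cluster, so the count is not separate from its description. Crmp1 and the Dpysl genes encode collapsin response mediators, which link Sema3a to the cytoskeleton, L1cam is a co-receptor of Nrp1, and Fyn and the Cdk5 activator Cdk5r1 act in the Sema3a response. L1cam was over 20 copies in 3 of 3 E11 neuron-like cells, 0 of 5 IP-like and 0 of 21 AP-like cells. In IP-like cells Dpysl3 was higher, by 1.47, where 0.843% of all genes were, and it was over the floor in 5 of 5 against 4 of 21 AP-like cells. No other gene of the list passed 1 between these clusters, but in the tree typing of E11 4 did, Dpysl3 by 1.52, Fyn by 1.42, Gsk3b by 1.14 and Dpysl2 by 1.09, where 2.09% of all genes were higher. Between E11 and E16 IPs Cdk5r1 was higher by 1.07, and Dpysl2, the kinase Gsk3b and Fyn were lower by 1 or more, with differences of -1.08 for Gsk3b and -1.05 for Fyn, where 1.71% of all genes were higher and 2.59% lower. In E16 cluster 2 the count was 5 higher (Crmp1, Cdk5r1, Dpysl5, L1cam and Dpysl3, by 1.34 to 1.87) and 1 lower (the GTPase Rap1a, which fell by 1.04), where 2.78% of all genes were higher and 2.12% lower. In the tree typing of E16, IPs minus APs, it was 1 higher (Cdk5r1, by 1.06) and 0 lower, where 0.704% and 0.751% of all genes were. In NICD/p18 APs 4 were higher (Mical1, Dpysl4, Crmp1 and Dpysl3, by 1.12 to 1.54) and 0 lower, where 3.24% and 4.07% of all genes were. The list counted 0 past 1 for both stage comparisons, for E12 APs and for neurosphere APs. For all of these comparisons the list's median difference was between 0.00 and 0.04. Of the 4 other neuropilin ligands listed, Vegfa was over the floor in no cell and Vegfb in 6 of 21 E11 and 11 of 24 E16 AP-like cells.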

How the data were processed

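The values deposited by the authors are probe-set intensities on a linear scale, produced with MAS5 according to the submitters' processing notes; genome build and annotation are not given in the sources used here. All 68 arrays of 45101 probe sets were used, and 0 columns belong to other samples. Arrays were quantile normalized together, signals below 842.4 (the median of the 20-copy spike) were raised to it, and log2 means were compared. Of 35890 annotated probe sets, 34958 carry 1 symbol, and each of 18194 genes was represented by its probe set with the highest floored mean. A gene was called different at 1 or more on the log2 scale, over the 10789 genes that reached the floor in a cell. E11 and E16 cells were clustered (complete linkage on correlation, 3 clusters a stage) on marker genes fixed without members. Groups are 1 sample each, so no p-value was computed; shares carry exact Clopper-Pearson 95% intervals, and 0 counts the limit of 3 counts. The comparison was tested on simulated data. Every member is named, and those past 1 in a comparison are described in full. Members, lists and comparisons were chosen with earlier results of these data known. Alternatives were 2 other scalings, a floor at the 100-copy spike (3946), no floor with 16 added, another probe set, the tree typing, the cell 31i kept, and each cell of a group of 3 to 5 left out. The number of arrays limits the precision. Python 3.11.15, numpy 2.4.6, pandas 2.3.3, scipy 1.17.1 and matplotlib 3.10.9 were used.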

Additional observations from a re-analysis of the deposited data

Results flagged for a closer look

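In groups of 4 or 5 cells, a cell was marked when its gap to the nearest other cell took up most of the group's range of floored values. Chance marks about 1 in 20 groups, and where only 1 cell is over the floor the gap is the whole range by construction. Among the 5 E11 IP-like cells this held for Sema3f, at 904.3 in 41G, and for Sema5b, at 1132 in 37N. Among the 4 NICD/p18 APs it held for 7 genes. Cell M6C stood apart with Nrp1 at 5974 and Nrp2 at 2238. Cell M5K did so with Sema3f at 899.9, Sema6c at 1745 and Sema7a at 918.9, and Sema4a was 1152 in M6H and Sema6a 1678 in M5A.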

How the results depend on the processing

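Under the 2 other scalings, 1 count of members past 1 changed by more than 1.5 times: scaling to the lys spike gave 1 member (Sema6d) for neurosphere minus E12 APs in place of 0. Scaling to the same trimmed mean kept the count of 3 for NICD/p18 APs but with Plxna3 in place of Plxna2, which was at 0.96. Without a floor, where a difference below 20 copies counts in full, the counts rose to 7 for E16 minus E11 over all cells, 8 for AP-like and 15 for IP cells, 9 and 17 for E11 IP-like and neuron-like cells, 15 for E16 cluster 2, 4 for E12 APs, 10 for neurosphere APs and 17 for NICD/p18 APs, where at least 19.8% of all genes passed 1. With the floor at 100 copies they were 0 for E11 IP-like and neuron-like cells, E16 cluster 2, the IPs between stages and NICD/p18 APs. At that floor 0 to 0.334% of all genes passed 1 in these comparisons, so counts of 0 say little about the members. The 100-copy floor was reached by 11 of 32 members. With the probe set of the highest single cell, Nrp1 dropped out, leaving 1 member for E11 IP-like cells and 1 for IPs between stages, while Nrp1 came in for E11 neuron-like cells (3 members) and NICD/p18 APs (4 members). In the tree typing E16 IPs against APs gave 1 member, Plxna2. Leaving out 1 cell at a time gave 0 to 2 members for E11 IP-like cells, 2 to 4 for neuron-like cells, 2 to 3 for E16 cluster 2, 1 to 3 for IPs between stages, 2 to 5 for NICD/p18 APs and 0 to 1 for neurosphere APs. The cause of these changes was not tested, beyond the floor itself. Of such recounts 60 stayed within 1.5 times and 28 did not. For single genes, 82 recomputed differences stayed within 1 SD between cells, 32 did not, and none changed sign. The number of members over 20 copies has no value without a floor. No paired analysis was possible because the labels carry no replicate numbers. Transcripts near or below 20 copies cannot be ordered at this depth.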
